A study of Mus musculus with 6 samples.

Results

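Macrophage and myeloid lineage genes were followed in RNA from cells sorted as fibroblasts out of mouse pancreatic tumours. The set was a list of 41 genes, taken by symbol, and all 41 were among the 49671 genes of the count tables. The tumours came from FC1199, a line of mouse pancreatic cancer cells placed in the pancreas of C57BL/6J mice aged 8 weeks. They grew for 4 weeks, so that the animals were 12 weeks old at harvest. Every host carried the Rosa-mTmG reporter, in which cells are red with Tomato and turn green with GFP once Cre has acted, and a Fabp4-Cre transgene. Podoplanin-positive cells were sorted by colour, and 3 libraries were made from the GFP cells and 3 from the Tomato cells. The labels call the GFP fraction stellate cell-derived and the Tomato fraction non-stellate cell-derived cancer-associated fibroblasts. The Fabp4 promoter that drives Cre is active in fat cells and also in macrophages and some endothelium, and Podoplanin is also carried by mesothelium and lymphatic endothelium.

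Macrophages and monocytes are phagocytes that depend on colony stimulating factors, enter tumours through chemokine receptors, and take up debris and antibody-coated particles through Fc, scavenger and lectin receptors. Fc receptors and TREM2 signal through the small adaptors encoded by Fcer1g and Tyrobp, whose tails carry the tyrosine motif ITAM. The transcription factor PU.1, encoded by Spi1, sets up this programme by binding purine-rich DNA whose core reads GAGGAA. Macrophages are a large part of the stroma of pancreatic cancer.

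RNA of fibroblast markers was abundant in both fractions. The summed level of 11 fibroblast markers was 129836 to 144520.1 CPM (reads per 1000000, scaled to library size) in GFP and 63566 to 96598 CPM in Tomato. Libraries held between 33378377 and 42154933 counted reads. Summed over the 36 myeloid genes without Gpnmb, Apoe, Lgals3, Spp1 and Dcstamp, which other stromal cells or osteoclasts also make, the level was 227 to 361 CPM in GFP and 1490.3 to 3662 CPM in Tomato.

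Spi1 is itself one of the 41 genes. RefSeq promoter windows of the listed genes (build GRCm38.p6) were searched for the letters GAGGAA on both strands in the 250 bases before the start. A window was available for 32 of the 41 genes, with 41 windows in all, since some genes have several starts. Windows of starts close together, as in Fcgr3 and Clec7a, overlap and can hold the same match. The letters were present in 17 of these 41 windows, or 41.5%, belonging to 14 genes, and in 23.3% of all 32851 windows. The longer form GAGGAAGT, which contains the shorter one, was in 1 of the 41 windows, that of Spp1, and in 2.44% of all windows. Letters of other factors were searched too, with N for any base. TTGCNNAA, for C/EBP factors, was in 12.2% of the 41 windows and 9.56% of all. TGANTCA, for AP-1, was in 9.76% and 6.75%. A match is a description of the letters, not a binding site. Stretches of 120 bases that end at the start are shown for 4 of the 14 genes, chosen to cover different kinds of receptor and a lysosomal protein and not for the distance of the match, namely an Fc receptor gene (chr3:96293970-96294089, minus strand), a lysosomal membrane protein gene (chr4:130913196-130913315, plus strand), a lipid receptor gene (chr17:48346281-48346400, plus strand) and a lectin receptor gene (chr6:129472780-129472899, minus strand). Capitals mark GAGGAA or its reverse complement TTCCTC.
Fcgr1: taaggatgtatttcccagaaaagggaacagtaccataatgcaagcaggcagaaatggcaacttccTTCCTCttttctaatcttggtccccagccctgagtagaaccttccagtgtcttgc
Laptm5: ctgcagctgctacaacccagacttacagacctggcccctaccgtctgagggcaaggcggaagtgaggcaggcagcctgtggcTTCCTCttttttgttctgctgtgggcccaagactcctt
Trem2: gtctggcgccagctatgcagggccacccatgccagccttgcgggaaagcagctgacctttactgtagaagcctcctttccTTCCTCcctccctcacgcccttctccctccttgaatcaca
Clec7a: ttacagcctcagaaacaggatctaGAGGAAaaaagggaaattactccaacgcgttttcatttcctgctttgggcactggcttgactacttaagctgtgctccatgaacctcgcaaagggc
The match began 55 bases before the start in Fcgr1, 38 in Laptm5, 40 in Trem2 and 96 in Clec7a. Of the other genes with a match, Fcgr3, Aif1 and Csf2ra had one closer to the start. The 4 genes shown were lower in GFP, whereas Marco and Spp1, which also had a match, did not pass the test. Most genes that had a window but no match were lower in GFP as well. A part of PU.1 in the levels was not tested.

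The GFP cells were compared with the Tomato cells. Of the 41 genes, 37 were lower in GFP and 0 were higher (edgeR quasi-likelihood test, adjusted p under 0.05 over 15608 genes tested). The count of higher genes was also 0 at an unadjusted p under 0.05 and by DESeq2, which called 37 lower. Across all genes tested, 15.7% were lower and 13.1% were higher. The median log2 fold change (GFP over Tomato) of the 41 genes was -3.07, against 0.00 over all genes tested. In 22 of the 37 the log2 fold change was -3 or below, a size reached by 2.42% of all genes, in 10 it lay between -3 and -2, and in 5 it was above -2. In the same 37 genes every GFP library was below every Tomato library, which held for 25.2% of all genes tested. In none did every GFP library lie above every Tomato library, against 23.4% of all genes. The adjusted p of the 37 ran from 0.000108 (Ms4a7) to 0.0309 (Mertk). The 4 genes that did not pass were Spp1, Gpnmb, Cd163 and Marco. All 41 genes passed the filter on low counts, 2 of them (Ccr2 and Cx3cr1) only with the help of the Tomato libraries. These 2 are counted in the 37 and in the 22, and their calls are not taken as support. Cd163, with 6 reads in Tomato replicate 3, passed the filter only with the help of the GFP libraries. In bulk RNA, fewer cells of a type and less RNA per cell cannot be told apart.

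**Figure D1:**
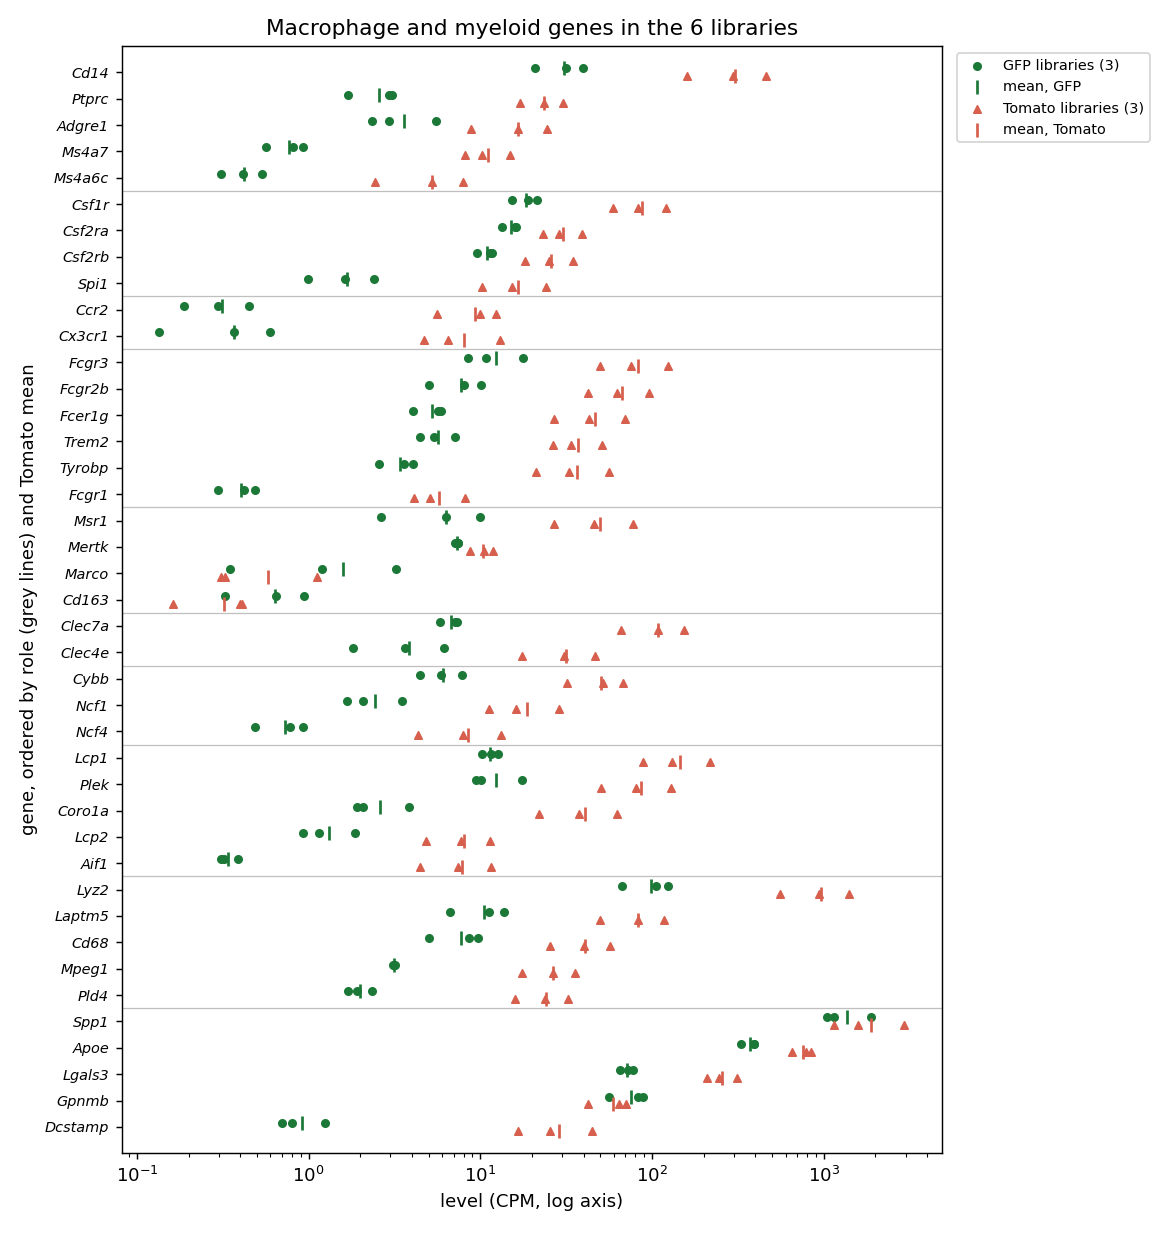
Level of each of the 41 genes in each library in CPM on a log axis, with circles for the 3 GFP libraries, triangles for the 3 Tomato libraries and vertical marks for the means. For 37 genes the circles lie wholly to the left of the triangles, while for Spp1, Gpnmb, Marco and Cd163 they overlap.

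The surface markers that define leukocytes and macrophages were low in GFP and present in Tomato. Ptprc (chromosome 1, 138062861 to 138175708) encodes CD45, the phosphatase carried by all white blood cells. Its level was 1.70, 2.95 and 3.07 CPM in GFP replicates 1 to 3 and 17.0, 23.5 and 30.2 CPM in Tomato replicates 1 to 3. The lowest Tomato library stood well above the highest GFP library, and the log2 fold change was -3.20 ± 0.28 (SE, adjusted p = 0.000318). Adgre1 (chromosome 17, 57358691 to 57483527) encodes F4/80, the standard marker of mouse macrophages. It had 2.34, 2.95 and 5.52 CPM in GFP and 8.84, 16.7 and 24.6 CPM in Tomato (-2.21 ± 0.45, adjusted p = 0.0128). That call was lost without a filter on low counts, by edgeR (-2.22, adjusted p = 0.0789). Cd14, the co-receptor for bacterial lipopolysaccharide, was the most abundant of these markers, with 30.7 ± 9.49 CPM in GFP (SD, n = 3) and 306 ± 151 CPM in Tomato, a ratio of means of 9.98. Ms4a7 and Ms4a6c encode four-pass membrane proteins of macrophages. Ms4a7 had 0.766 ± 0.184 against 11.1 ± 3.43 CPM and Ms4a6c had 0.422 ± 0.114 against 5.23 ± 2.77 CPM. Ms4a6c belongs to a cluster of similar genes and shares 53.1% of its exon bases with an antisense transcript, so its counts are uncertain.

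Genes for the growth factor receptors that keep macrophages alive and for the factor that sets up the lineage were all lower in GFP, with log2 fold changes from -3.31 to -1.002. Spi1 (chromosome 2, 91082390 to 91115756) had 0.996, 1.64 and 2.40 CPM in GFP and 10.2, 15.4 and 24.2 CPM in Tomato (-3.31 ± 0.41, adjusted p = 0.00191). Csf1r, the receptor for CSF1 and IL-34, had 15.3, 19.1 and 21.4 CPM in GFP and 59.5, 83.3 and 121 CPM in Tomato (-2.24 ± 0.26, adjusted p = 0.00143). Its exons share 15.1% of their bases with Hmgxb3 on the opposite strand, and reads of the overlap cannot be assigned by strand. Csf2ra and Csf2rb encode the chains of the GM-CSF receptor, the second of which also serves IL-3 and IL-5. Csf2ra had 13.3, 15.9 and 16.3 CPM in GFP and 23.3, 28.6 and 39.3 CPM in Tomato (-1.002 ± 0.19, adjusted p = 0.00666). Csf2rb had 10.9 ± 1.11 CPM in GFP and 25.9 ± 8.23 CPM in Tomato (-1.25 ± 0.22, adjusted p = 0.00579), with a close paralogue beside it that can take some of its reads. The GFP libraries stayed below the Tomato libraries for both chains, by ratios of means of 2.004 and 2.38. Per kilobase of exon the level of Csf1r divided by that of Ptprc was 20.5 to 28.6 in the GFP libraries and 11.1 to 12.7 in the Tomato libraries. The same quotient for Spi1 was 3.78 to 5.30 and 4.09 to 5.46, and the ranges overlapped.

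The chemokine receptor genes were present in Tomato and rested on few reads in GFP. Both passed the filter on low counts only through the Tomato libraries, where they are high, so their fold changes are given without a test result. Ccr2 (chromosome 9, 124101950 to 124113557) encodes the receptor through which monocytes leave the bone marrow and enter inflamed tissue. It had 0.188, 0.298 and 0.451 CPM in GFP and 5.62, 10.01 and 12.4 CPM in Tomato (-4.89 ± 0.40). Cx3cr1 (chromosome 9, 119901616 to 120069879), the receptor for CX3CL1 on resident and patrolling myeloid cells, had 0.135, 0.597 and 0.366 CPM in GFP and 4.74, 6.51 and 13.03 CPM in Tomato (-4.47 ± 0.56). The GFP values rest on 7 to 16 reads per library for Ccr2 and on 5 to 20 reads for Cx3cr1.

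Genes of the Fc receptors and their adaptors fell together. Their 6 members were all called lower, with log2 fold changes from -3.83 (Fcgr1) to -2.73 (Trem2). Fcgr1 (chromosome 3, 96282909 to 96293969), the high-affinity receptor for IgG, had 0.485, 0.298 and 0.423 CPM in GFP and 4.11, 5.10 and 8.15 CPM in Tomato. Fcgr3, an activating receptor, had 12.4 ± 4.87 against 83.2 ± 37.5 CPM, and Fcgr2b, the inhibitory receptor, 7.74 ± 2.53 against 67.1 ± 27.3 CPM. Activating and inhibitory receptors thus moved the same way, although reads can be shared between these related genes. Tyrobp (chromosome 7, 30413760 to 30417585), which encodes the adaptor DAP12, had 2.58, 3.61 and 4.06 CPM in GFP and 21.0, 32.7 and 56.3 CPM in Tomato (-3.42 ± 0.39, adjusted p = 0.00141). Fcer1g, which encodes the common gamma chain of Fc receptors, had 5.22 ± 1.009 against 46.6 ± 21.7 CPM (-3.16 ± 0.37, adjusted p = 0.00148). Relative to Ptprc and per kilobase, Tyrobp stood at 33.6 to 41.8 in GFP and 34.0 to 51.3 in Tomato, and Fcer1g at 40.0 to 50.2 and 33.1 to 48.5, so that both ranges overlapped. Trem2, a receptor for lipids that signals through DAP12, had 5.64 ± 1.35 against 37.3 ± 12.8 CPM (adjusted p = 0.000789).

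The scavenger and clearance receptors did not share one pattern. Msr1 (chromosome 8, 39581685 to 39642673), the class A scavenger receptor, had 2.64, 6.36 and 9.92 CPM in GFP and 26.8, 46.0 and 77.1 CPM in Tomato (-2.99 ± 0.54, adjusted p = 0.00849). Its call was lost without Tomato replicate 3 (-2.54, adjusted p = 0.0609) and without a filter on low counts (-3.003, adjusted p = 0.0621), both by edgeR. Mertk, a receptor for apoptotic cells, was close in both fractions, with 7.43, 7.40 and 7.13 CPM in GFP and 8.72, 10.5 and 11.8 CPM in Tomato. It passed at -0.50 ± 0.14 (adjusted p = 0.0309), but by edgeR not when any single library other than Tomato replicate 1 was left out (adjusted p 0.0729 to 0.0941). Cd163, the haemoglobin scavenger receptor of resident macrophages, was barely detected, with 6 to 35 reads per library. It had 0.942, 0.328 and 0.648 CPM in GFP and 0.397, 0.412 and 0.163 CPM in Tomato (0.97, 95% confidence interval -0.12 to 2.07, adjusted p = 0.157). Marco, a scavenger receptor of marginal zone and alveolar macrophages, had 0.35002, 1.19 and 3.21 CPM in GFP and 0.327, 0.309 and 1.11 CPM in Tomato. Its value was highest in replicate 3 of each fraction, and the log2 fold change of 1.45 (interval -0.50 to 3.41) did not pass (adjusted p = 0.223). With the replicate number as a block Marco passed as higher in GFP by edgeR (1.31, adjusted p = 0.0200). Without GFP replicate 3 its log2 fold change was 0.41, and without Tomato replicate 3 it was 2.30. No opposite direction was thus established for Cd163, and for Marco it rested on the pairing of libraries.

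Both C-type lectin receptor genes were lower in GFP. Clec7a (chromosome 6, 129461591 to 129472779) encodes dectin-1, which binds fungal beta-glucan. It had 5.84, 7.13 and 7.30 CPM in GFP and 66.3, 108 and 153 CPM in Tomato (-4.01 ± 0.32, adjusted p = 0.000345). Clec4e encodes mincle, a receptor for mycobacterial glycolipid and for products of dead cells, and had 3.87 ± 2.19 against 31.6 ± 14.6 CPM (-3.03 ± 0.50, adjusted p = 0.00618). Per kilobase and relative to Ptprc, Clec7a was at 16.5 to 23.9 in the GFP libraries and at 27.1 to 35.2 in the Tomato libraries, without overlap, the reverse of Csf1r. The quotient of Cd14 to Ptprc was 113 to 136 in GFP and 99.1 to 162 in Tomato, and the ranges overlapped. In all, 9 quotients between genes were computed, not all of them relative to Ptprc, and none was tested.

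The phagocyte NADPH oxidase makes superoxide inside the phagosome. Cybb, its catalytic membrane subunit (chromosome X, 9435252 to 9487771), had 4.47, 7.85 and 5.89 CPM in GFP and 32.2, 51.9 and 68.2 CPM in Tomato (-3.07 ± 0.32, adjusted p = 0.00105). The cytosolic subunit genes Ncf1 (-2.95, adjusted p = 0.00352) and Ncf4 (-3.54, adjusted p = 0.00172) fell by like amounts. Ncf1 shares 11.1% of its exon bases with Gtf2ird2 on the opposite strand. Of the other subunit genes, Rac2, the GTPase of blood cells, fell by 3.05 on the log2 scale (adjusted p = 0.000701). Cyba, which encodes a membrane subunit made by many cell types, had 86.5 ± 5.13 against 136 ± 26.7 CPM (-0.65 ± 0.14, adjusted p = 0.0108).

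Genes for the leukocyte cytoskeleton and signalling adaptors were all lower in GFP. Aif1 (chromosome 17, 35170991 to 35176068), which encodes the actin-binding protein IBA1, had 0.323, 0.388 and 0.310 CPM in GFP and 4.48, 7.41 and 11.5 CPM in Tomato (-4.50 ± 0.40, adjusted p = 0.000241). Coro1a, an actin regulator of white blood cells, had 2.62 ± 1.08 against 40.9 ± 20.6 CPM (-3.96), and Lcp1, the actin bundler L-plastin, 11.5 ± 1.21 against 146 ± 65.4 CPM (-3.67). Lcp2, which encodes the adaptor SLP-76, had 1.31 ± 0.487 against 8.01 ± 3.31 CPM (-2.60). Plek, a substrate of protein kinase C, had 12.3 ± 4.42 against 86.4 ± 39.4 CPM (-2.81 ± 0.39, adjusted p = 0.00315). Plek shares 4.44% of its exon bases with Cnrip1 on the opposite strand, and with a single strand column its log2 fold change was -2.20 (edgeR, adjusted p = 0.00468).

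All 5 genes for products of the phagosome and lysosome were lower in GFP. Lyz2 (chromosome 10, 117277331 to 117282321), the lysozyme gene of macrophages and granulocytes, had 66.7, 124 and 106 CPM in GFP and 555, 935 and 1399 CPM in Tomato (-3.28 ± 0.39, adjusted p = 0.00158). The near-identical gene Lyz1 can take some of its reads. Mpeg1, which encodes the pore-forming protein perforin-2, was almost constant over the GFP libraries at 3.15, 3.10 and 3.18 CPM and had 17.6, 26.4 and 35.6 CPM in Tomato (-3.07 ± 0.25, adjusted p = 0.000208). Cd68, a lysosomal membrane glycoprotein, had 7.77 ± 2.43 against 41.002 ± 15.8 CPM (-2.40). Laptm5 had 10.6 ± 3.60 against 83.1 ± 33.8 CPM (-2.98), and Pld4, an exonuclease of endolysosomes, 1.98 ± 0.327 against 24.1 ± 8.27 CPM (-3.60).

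The 5 genes that other stromal cells or osteoclasts also make went different ways. Dcstamp (chromosome 15, 39745930 to 39760938), which encodes a membrane protein needed for the fusion of osteoclasts and giant cells, had the largest change of the 41. Its level was 0.70004, 0.806 and 1.24 CPM in GFP and 16.5, 25.4 and 44.8 CPM in Tomato (-4.97 ± 0.45, adjusted p = 0.000608), a ratio of means of 31.6. Lgals3, which encodes the sugar-binding protein galectin-3, had 65.3, 77.5 and 72.3 CPM in GFP and 209.7, 246 and 312 CPM in Tomato (-1.84 ± 0.15, adjusted p = 0.000156). Apoe, the lipid carrier, had 393, 395 and 332 CPM in GFP and 651, 787 and 839.6 CPM in Tomato (-1.02 ± 0.13, adjusted p = 0.00114). Both kept a clear gap between the fractions with high levels in GFP.

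Spp1 and Gpnmb, which are often used as markers of tumour macrophages, overlapped between the fractions. Spp1 (chromosome 5, 104435118 to 104441050), which encodes osteopontin, had 1049, 1151 and 1896 CPM in GFP and 1155, 1587 and 2954 CPM in Tomato. Replicate 3 was the highest library of each fraction, and the log2 fold change of -0.48 (95% confidence interval -1.36 to 0.41) did not pass (adjusted p = 0.368). With the replicate number as a block Spp1 passed as lower by edgeR (-0.41, adjusted p = 0.0254). When transcript length and GC content were also corrected for it was at 0.011 (adjusted p = 0.949), and without Tomato replicate 3 at -0.01 (adjusted p = 0.978). Gpnmb, a glycoprotein of lysosomes and melanosomes, had 89.1, 82.8 and 56.1 CPM in GFP and 70.2, 64.4 and 42.6 CPM in Tomato (0.36, interval -0.17 to 0.89, adjusted p = 0.258). Here replicate 3 was the lowest library of each fraction, and with the block Gpnmb passed as higher in GFP (edgeR, 0.37, adjusted p = 0.00517). Spp1 alone took 56.5% to 69.7% of the summed CPM of the 41 genes in GFP libraries and 30.9% to 37.6% in Tomato libraries, and Lyz2 took 3.66% to 6.09% and 15.5% to 18.2%.

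**Figure D2:**
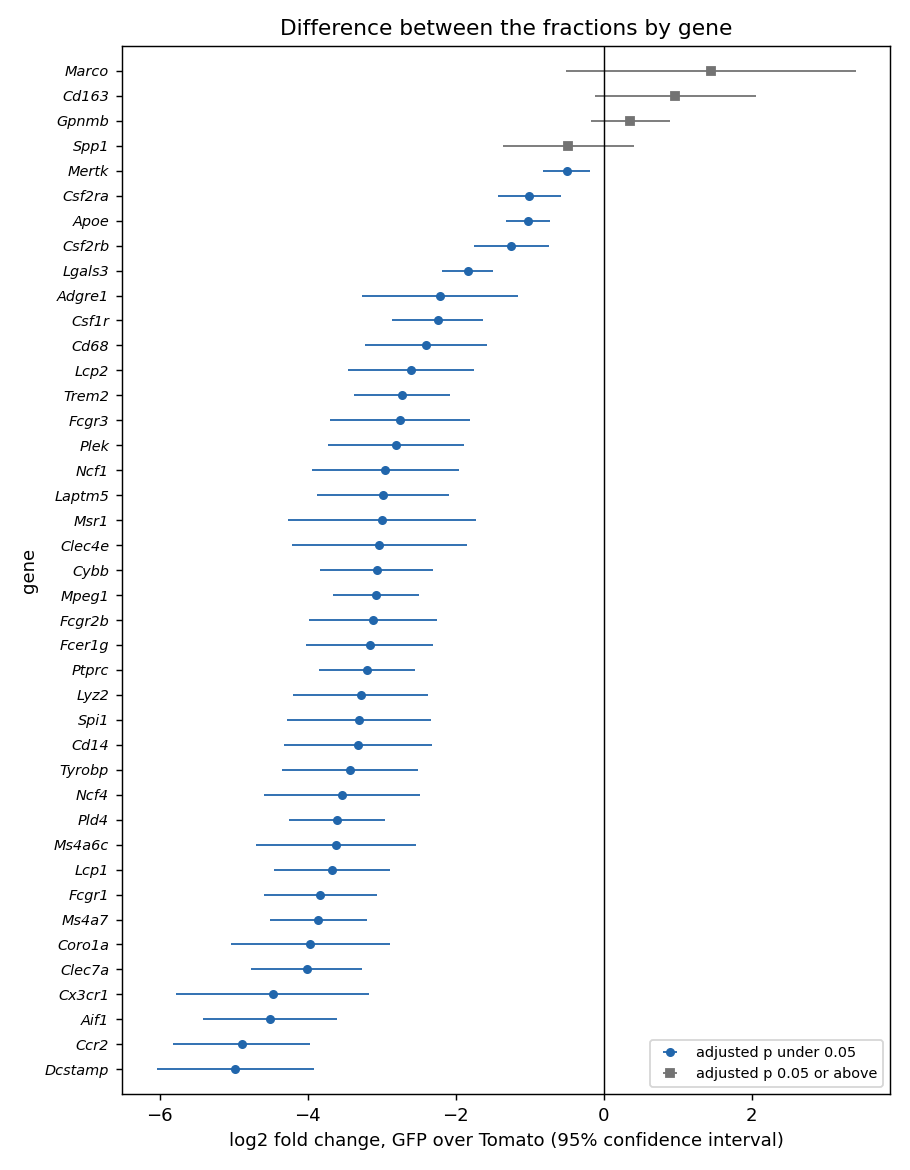
Log2 fold change (GFP over Tomato) of each of the 41 genes with its 95% confidence interval, ordered by size, with blue circles for adjusted p under 0.05 and grey squares for the others. The values run from -4.97 for Dcstamp to 1.45 for Marco, and the 4 genes that did not pass are at the top.

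Levels per kilobase of merged exon put the genes in a different order in the fractions. In Tomato the highest were Spp1 at 1152 CPM per kilobase, Lyz2 at 732, Apoe at 355, Cd14 at 177 and Lgals3 at 138, followed by the adaptors Tyrobp at 55.0 and Fcer1g at 53.4. In GFP the order was Spp1 at 828, Apoe at 175, Lyz2 at 75.3, Lgals3 at 38.6, Cd14 at 17.7 and Gpnmb at 11.7 CPM per kilobase. Tyrobp and Fcer1g differed in Tomato by less than their spread over libraries. Cd14 and Lgals3 differed there by less than the spread of Cd14 (SD 87.2 CPM per kilobase), though not less than that of Lgals3.

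Within a fraction the genes varied together from library to library. Tomato replicate 3 held the highest Tomato value for 39 of the 41 genes, the exceptions being Gpnmb and Cd163, and Tomato replicate 1 the lowest for 38. Over the 36 myeloid genes the median level was 60.2% of the Tomato mean in replicate 1, 94.98% in replicate 2 and 144% in replicate 3. The ratio of Tomato replicate 3 to replicate 1 had a median of 2.37 for these genes and of 0.996 over all genes tested. In GFP the medians were 74.6%, 101% and 119%, and replicate 3 was the highest GFP library for 28 of the 41 genes. The summed level of the 11 fibroblast markers was 96598, 78935 and 63566 CPM in Tomato replicates 1, 2 and 3, lowest where the myeloid genes were highest, and the part of either in the other was not tested. Leaving out Tomato replicate 3 left 35 genes called lower, with a median log2 fold change of -2.76. Within pairs of equal replicate number the median ratio of Tomato to GFP over the 36 genes was 7.55, 8.19 and 9.97.

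**Figure D3:**
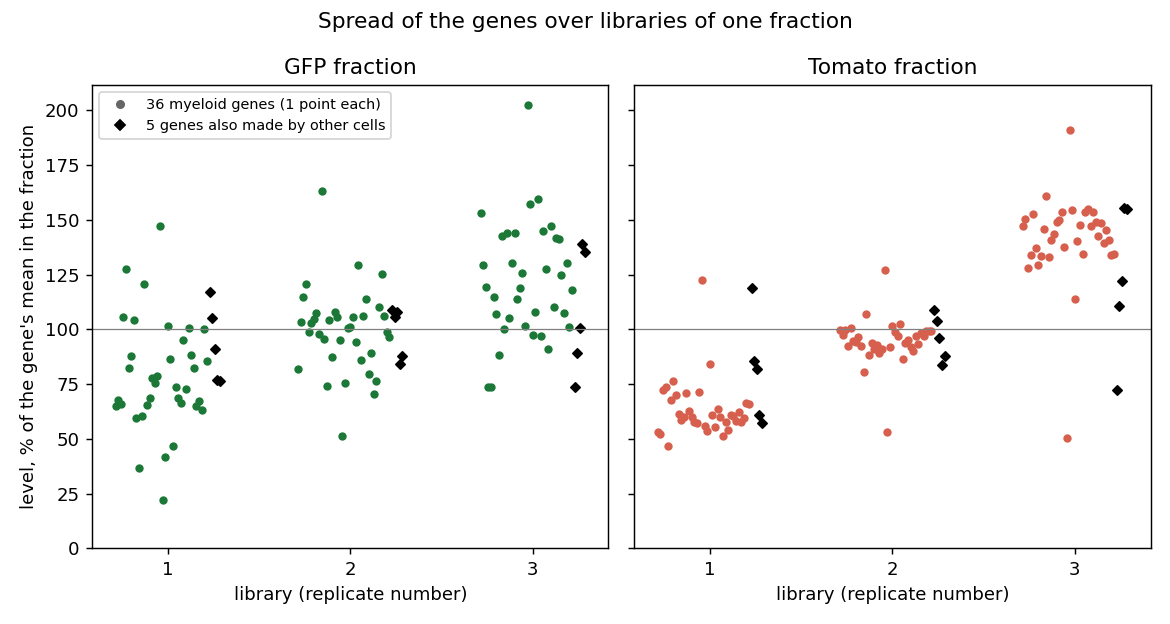
Level of each gene in each library as a percentage of its mean in the same fraction, for GFP and Tomato, with coloured circles for the 36 myeloid genes and black diamonds for the 5 genes also made by other cells. Most Tomato circles lie near 60% in replicate 1 and near 144% in replicate 3, and the GFP circles are more scattered around 74.6%, 101% and 119%.

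Ligands for the receptors went different ways. Csf1, the growth factor that binds CSF1R, had 711, 609 and 579 CPM in GFP and 498, 378 and 262 CPM in Tomato and was higher in GFP (0.74 ± 0.22, adjusted p = 0.0360). This call was lost without a filter on low counts (adjusted p = 0.105) and, by edgeR, without any 1 of the 3 GFP libraries or Tomato replicate 2 (adjusted p 0.0647 to 0.107). Il34, the other ligand of CSF1R, had close means, 40.5 ± 5.22 and 40.2 ± 7.64 CPM (0.01, interval -0.34 to 0.36, adjusted p = 0.967), though with the block and the length and GC correction together it passed as higher in GFP (0.23, adjusted p = 0.0467 by edgeR). Csf2, which encodes GM-CSF, had 4.39 ± 1.61 CPM in GFP and 2.94 ± 1.04 CPM in Tomato (adjusted p = 0.216). The replicate block made it a call, higher in GFP (0.57, adjusted p = 0.0295 by edgeR). Csf3, the granulocyte growth factor, was lower in GFP (-1.08 ± 0.25, adjusted p = 0.0192), a call that was lost by edgeR without a filter on low counts (0.0611), without GFP replicate 1 (0.0559) and without GFP replicate 3 (0.0608).

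Among ligands of CCR2, Ccl2 had 1434 ± 297 and 1260.0 ± 225 CPM (0.19, interval -0.24 to 0.61, adjusted p = 0.471) and Ccl7 had 1314 ± 243 and 1148 ± 246 CPM (0.20, interval -0.23 to 0.62, adjusted p = 0.457). Both passed as higher in GFP with the block and the length and GC correction (edgeR, 0.67 and adjusted p = 0.000855 for Ccl2, 0.74 and adjusted p = 0.000643 for Ccl7). The chemokine gene Ccl8 (-0.44, adjusted p = 0.246) passed as lower with the block alone (-0.45, adjusted p = 0.0100 by edgeR), and Ccl12 was lower in GFP (-2.73 ± 0.54, adjusted p = 0.0102). Without Tomato replicate 3 the Ccl12 value was -2.12, and with the length and GC correction -2.09. Cx3cl1, the ligand of CX3CR1, had 75.0, 74.7 and 80.0 CPM in GFP and 44.8, 50.4 and 46.6 CPM in Tomato, a narrow spread with a clear gap (0.69 ± 0.09, adjusted p = 0.00105). The clearance ligands of MERTK, Gas6 (-0.43, adjusted p = 0.0662) and Pros1 (0.41, adjusted p = 0.0853), did not pass. With the block Gas6 passed as lower (adjusted p = 0.0372) and Pros1 as higher (adjusted p = 0.0190), by edgeR, and DESeq2 called them the same way (adjusted p = 0.0317 and 0.0476).

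Other genes of the phagocyte programme, outside the 41, were mostly lower as well, apart from transcription factors, where the calls were mixed. Across all genes tested 15.7% were lower and 13.1% higher. All 3 genes of complement C1q, which macrophages secrete, fell by 3.34 to 3.46 on the log2 scale, with C1qa at 9.74 ± 2.33 against 107 ± 46.8 CPM, C1qb at 14.7 ± 3.49 against 159.9 ± 67.3 CPM and C1qc at 11.3 ± 3.28 against 115 ± 50.9 CPM. Of 8 further Fc receptor and ITAM pathway genes 7 were lower and none higher, among them Syk, the kinase that binds ITAMs (-2.05, adjusted p = 0.000439), and the downstream genes Btk (-3.19) and Plcg2 (-2.73). Of 24 further surface genes and their ligands tested 18 were lower, led by adjusted p by the integrin gene Itgal (-4.09, adjusted p = 0.000131), and 1 was higher, Lyve1, which is also a lymphatic endothelial marker. With the replicate block or the length and GC correction, alone or together, 2 were higher. The same count was reached without a filter on low counts, without Tomato replicate 1 and by DESeq2. Of 12 further transcription factor genes tested 4 were lower and 2 higher, with a median log2 fold change of -0.078. The count of higher genes was 4 with the replicate block and without Tomato replicate 1, and 1 without GFP replicate 1 or Tomato replicate 2. Irf5 (-2.52, adjusted p = 0.00140), Irf8 (-1.12, adjusted p = 0.00220) and Ikzf1 (-2.02, adjusted p = 0.00273) were lower, and Runx1, which fibroblasts express too, was higher (0.57, adjusted p = 0.00482). With a single strand column Irf5 was at -1.41.

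**Figure D4:**
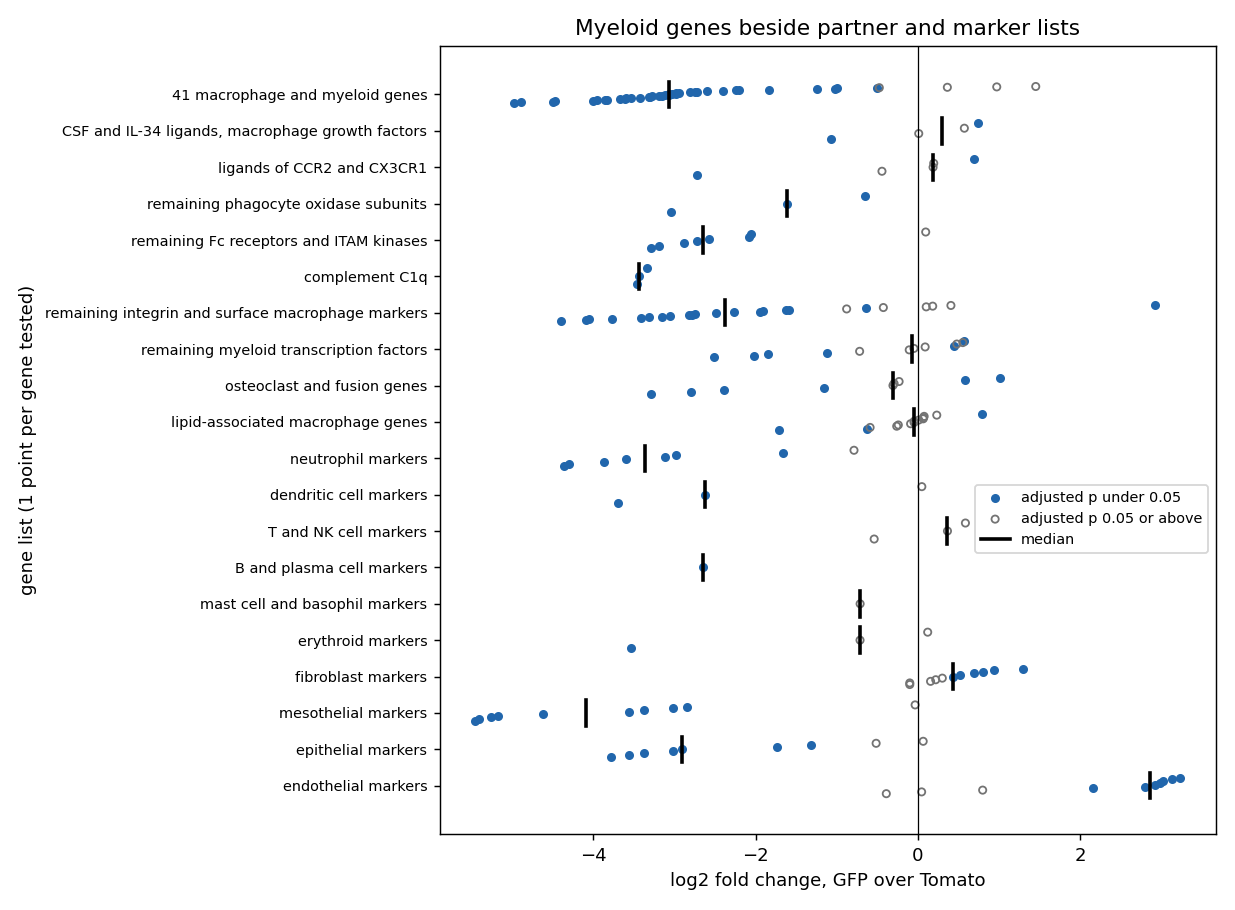
Log2 fold change (GFP over Tomato) of every gene tested in the 41-gene set and in the partner and marker lists, with filled points for adjusted p under 0.05, open points for the others and a black bar for the median. The medians lie at -3.07 for the 41 genes, -3.44 for complement C1q, 0.29 for the growth factors and 0.19 for the ligands of CCR2 and CX3CR1.

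Markers of some other cells moved with the fractions too. Of 8 neutrophil markers tested, 7 were lower and none higher, with S100a8 at 0.553 ± 0.237 against 8.17 ± 1.86 CPM and a list sum of 5.13 to 8.31 CPM in GFP and 28.6 to 44.2 CPM in Tomato. The list sum was highest in Tomato replicate 3, with 34.5, 28.6 and 44.2 CPM in Tomato replicates 1, 2 and 3. Of 3 dendritic cell markers tested 2 were lower, led by the integrin gene Itgax (-3.69), which macrophages share, with a list sum of 27.1 to 28.5 CPM in GFP and 43.6 to 58.5 CPM in Tomato. Of 3 T and NK cell markers tested 0 passed by edgeR or DESeq2 (1 at an unadjusted p under 0.05), and the list sum was 4.44 to 6.27 CPM in GFP and 4.34 to 6.51 CPM in Tomato. By edgeR 1 was lower when Tomato replicate 1 was left out or when libraries were scaled by size alone, and 2 were higher with the replicate block and the length and GC correction together. For B and plasma cells the 1 gene tested, Jchain, was lower (-2.65), and the 7 genes summed to 0.915 to 1.88 and 4.13 to 8.70 CPM. Leaving out Tomato replicate 3 gave 3 lower genes, and leaving out GFP replicate 1 gave 2. For genes outside the 41 it was not checked whether they passed the filter on low counts only through the Tomato libraries. Calls at such low GFP levels, as for Jchain and the neutrophil markers, are therefore not taken as support. Mast cell and basophil markers summed to at most 1.61 and 3.60 CPM and erythroid markers to at most 1.91 and 10.6 CPM, with Fcer1a at 0 in every library. The 1 mast cell gene tested did not pass by edgeR or DESeq2 (-0.71). By edgeR 1 gene of that list was lower with the replicate block, with or without the length and GC correction. The same count was reached with library size as the only scaling, without a filter on low counts and without Tomato replicate 1. Of 10 mesothelial markers 9 were lower (sums 173 to 201 and 1484 to 1756 CPM), of 9 epithelial markers 7 were lower (66.6 to 87.0 and 544 to 662 CPM), and of 10 endothelial markers 7 were higher in GFP (264 to 423 and 73.5 to 122 CPM). Keratin genes that were lower stand in both the mesothelial and the epithelial list, so the counts and sums of these lists are not separate. Of 11 fibroblast markers 6 were higher and none lower in GFP, and 10 were higher with the replicate block and the length and GC correction together. The part of these cells in the levels of the 41 genes was not tested.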

How the data were processed

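RNA of 6 libraries, 3 per fraction, was sequenced after an Illumina TruSeq preparation from 150 ng of total RNA, per the labels' protocols. Per the file headers, the deposited tables give raw counts of reads by gene, with strands joined and apart. The submitters' processing notes name Trim Galore 0.4.3, STAR 2.5.2b and build GRCm38 without roles. For the annotation release and filters, these are not given in the sources used here. Joined strands were analysed, since the strand columns were nearly equal (ratio 1.0022 to 1.0063), so overlapping and antisense genes cannot be told apart. Of 49671 genes 49412 matched GENCODE M21 (GRCm38), which gave symbols, coordinates (1-based) and merged exon lengths. The other 259 held 0.008% of counts.

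GFP was compared with Tomato by the two-sided quasi-likelihood F test of edgeR 4.0.16 (R 4.3.3), robust, with TMM scaling, the filterByExpr filter (15608 genes), no block and Benjamini-Hochberg adjustment, threshold 0.05. CPM are TMM-scaled. Standard errors and 95% confidence intervals were derived from each fold change with its F value. The fits were tested on simulated data. The labels do not say whether replicates came from separate animals, so p-values may measure only technical spread. Libraries of equal number deviated together (correlations 0.403, 0.108 and 0.347, each above the limit of 0.1). They may thus be pairs by number, a reading of the data that the labels do not give. The main fit did not use this pairing, so its p-values, standard errors and counts ignore it. Only the alternatives with the replicate block use it. Blocked values are given beside the named genes and lists whose call or count they change.

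The alternatives were RLE scaling, library size alone, no filter, 1 CPM in 3 libraries, DESeq2 1.42.0, the replicate block, a length and GC correction (splines, 4 degrees of freedom) with and without the block, a single strand column, and leaving out each library. The 41 genes and all lists were chosen with earlier results of these data known. All 41 were reported. From partner and marker lists, the genes named were among the 3 with the highest mean level or the 3 with the smallest adjusted p, or belonged to the growth factor, chemokine, oxidase and C1q lists. Fcer1a was named after its values were seen. A result on 1 withheld gene is not reported here. Promoter windows came from RefSeq (GRCm38.p6).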

Additional observations from a re-analysis of the deposited data

How the results depend on the processing

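Of the 37 genes called lower, 34 kept their direction and call in all 15 alternatives, the exceptions being Mertk, Msr1 and Adgre1. The 34 include Ccr2 and Cx3cr1, which passed the filter only through the Tomato libraries. The count of genes called lower was 35 to 38 over the 9 alternatives with all libraries and 35 to 37 without single libraries, with medians of -3.24 to -2.89 and -3.32 to -2.76. With the replicate block, with or without the length and GC correction, 2 of the 41 genes were higher instead of none (Gpnmb and Marco). The block changed no other call of the 41 beside that of Spp1, which passed as lower under the block alone. Over all genes, 2456 were lower and 2049 higher. With library size as the only scaling these were 3851 and 1128 and the median over all genes moved to -0.16 (log2). With the block 3137 were higher, and 3579 with the length and GC correction as well. Without single libraries 1380 to 2793 were lower and 833 to 2392 higher, with 1380 and 920 without GFP replicate 1, 1551 and 1195 without GFP replicate 3, and 1528 and 833 without Tomato replicate 2. Among values that did not pass, Spp1 turned to 0.011 with block and correction, Ccl8 to 0.054 with the correction and 0.066 with the block as well, and Il34 to -0.15 with library size alone, -0.0020 without a filter, -0.047 with a single strand column and -0.14 to 0.13 without single libraries. The causes were not tested. Few reads limit Marco and, with GFP means under 1 CPM, Cd163, Ccr2, Cx3cr1, Aif1, Fcgr1, Ms4a6c, Ncf4, Ms4a7 and Dcstamp.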

Other observations

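Osteoclast and lipid-handling genes, which share regulators or functions with tumour macrophages, split between the fractions. Of 9 osteoclast and fusion genes tested 4 were lower, 2 were higher and 3 did not pass, against 15.7% lower and 13.1% higher over all genes tested. By edgeR 1 was higher with library size as the only scaling, without any 1 of the 3 GFP libraries and without Tomato replicate 2. Mmp12, the macrophage metalloelastase gene, had 47.4, 55.5 and 51.1 CPM in GFP and 353, 457 and 695 CPM in Tomato (-3.29 ± 0.25, adjusted p = 0.000190 by edgeR), with Tomato replicate 3 the highest as for most of the 41 genes. Acp5, the acid phosphatase of osteoclasts and macrophages, fell less (33.3 ± 1.24 against 74.1 ± 18.0 CPM, -1.15), and Atp6v0d2, a proton pump subunit, had 1.60 ± 0.651 against 8.38 ± 2.06 CPM (-2.40). Nfatc1, the transcription factor that drives osteoclast genes such as Dcstamp, was higher in GFP (152 ± 27.1 against 74.9 ± 12.5 CPM, 1.02 ± 0.16, adjusted p = 0.00279 by edgeR). Which cells of the fractions made the Nfatc1 RNA was not tested. Of 14 genes of lipid-associated macrophages 2 were lower, 1 was higher and 11 did not pass. Across all genes tested 15.7% were lower and 13.1% higher, so this list did not stand out. By edgeR 4 were lower with the replicate block or with library size as the only scaling, 1 was lower without GFP replicate 1 or Tomato replicate 2, and 3 were higher with the block and the length and GC correction together. Fabp5, a fatty acid carrier, was lower in GFP (-1.72, adjusted p = 0.000241) and Lpl, the secreted lipase that fat cells and fibroblasts also make, was higher (0.80, adjusted p = 0.00514), both by edgeR.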
